A study of Mus musculus with 28 samples.

Results

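DEAD box and DEAH box proteins are RNA helicases, enzymes that use ATP to open RNA duplexes or to strip proteins from RNA, and they act at nearly every step in the life of an RNA. They are named after a short motif, called motif II, that holds the catalytic residues for ATP hydrolysis. In growing cells many of them serve the spliceosome and the assembly of ribosomes, while others act in mRNA export, translation and decay, in mitochondria, in the germ line or as sensors of viral RNA. The genes described here are all those whose symbol begins with Ddx or Dhx followed by a digit, 53 of the 24984 genes listed (37 Ddx and 16 Dhx genes). The rule uses the symbol alone and no measured value, although the family itself was picked with earlier results of these data known.

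The assay was Bru-seq, which labels newly made RNA with bromouridine (BrU), pulls the labelled RNA down with an antibody and sequences it. Wild-type (WT) mouse embryonic stem cells (mESCs) and cells labelled EloA null, which lack the elongation factor Elongin A, were compared in 3 conditions. In steady state the cells were given 2 mM BrU for 10 min. In the other conditions transcription elongation was first blocked for 60 min with 1 µM flavopiridol (FP), a P-TEFb inhibitor, and BrU was given for 5 min or 10 min from the removal of the drug. Each genotype had 2 libraries per condition, 12 in all, and the cells were kept on feeder fibroblasts with LIF and 2 kinase inhibitors and freed of feeders before the assay. The growth label names the line CCE28 and the treatment label CJ7, and which line was used was not resolved here.

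The deposited values are RPKM, read counts scaled to gene length and library size, with 1 table per condition. The values of 52 of the 53 genes stood for whole numbers of reads, within 0.05 of a read, over the summed length of their introns with the adjoining exon base on each side, or over the gene span in the intronless Ddx28. The exception was Ddx11. The levels below are therefore close to intron RNA. Library sizes worked out from the same steps were 23138347 to 27954230 reads in steady state, 9857527 to 17272748 reads after 5 min of recovery and 18820717 to 28547357 reads after 10 min. In each condition, nascent RNA of the targeted gene, Eloa, was higher in the libraries labelled EloA null than in the WT libraries (1.96 and 1.89 RPKM against 1.18 and 1.16 RPKM in steady state), so these levels do not check the label, and the libraries are called by their label throughout. The first steady-state library with EloA null in its title also carries a genotype label of wild type. It was grouped by its title here, and it gave the 1.96 RPKM of Eloa above, beside 1.89 RPKM in the other EloA null library. All 10 markers of embryonic stem cells were expressed, with a summed level between 202 and 343 RPKM per library, against 0.779 to 3.15 RPKM for 10 markers of feeder fibroblasts. The study calls its duplicates independent experiments, while the labels do not say whether they came from separate cultures, and p-values measure the spread between these libraries.

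Motif II is what the symbols refer to, and its spelling in the coding sequence shows how the family divides. The codons for Asp-Glu-Ala-Asp (DEAD) were found in frame, once and with no DEAH codons, in 28 of the 53 longest coding sequences, 27 of them Ddx genes, and the codons for Asp-Glu-Ala-His (DEAH) once in 9, of which 8 were Dhx genes. Ddx11 was the Ddx gene with DEAH codons. The Dhx gene with DEAD codons was Dhx29, where they lay 81.8% of the way along the coding sequence. Dhx29 also holds the codons of the variant DEVH once, so its DEAD match may not be motif II. Ddx10 held DEAD codons at more than 1 place, and 15 genes held neither form. Among these 15, the codons of a variant were found in 13: DEIH in Dhx9 and Dhx36, DECD in Ddx39 and Ddx39b, DEVD in Ddx21, Ddx28 and Ddx50, DEVH in Ddx60, Dhx30, Dhx34 and Dhx57, and DECH in Ddx58 and Dhx58. The runs below are from the GRCm38.p6 genome, each within 1 exon, with the 12 bases of the motif in capitals and 9 bases on each side, and they are shown for genes whose levels are described further on.
Dhx9, chr1:153468880-153468909, minus strand: gttattgtgGATGAAATTCATgaaagagat
Dhx36, chr3:62493845-62493874, minus strand: attgtacttGATGAAATTCATgaaaggaat
Dhx16, chr17:35885499-35885528, plus strand: gtgatggtgGATGAAGCTCACgagcggacc
Dhx40, chr11:86800978-86801007, minus strand: attattttgGATGAAGCCCATgaaagaact
Dhx34, chr7:16216381-16216410, minus strand: ctgatcgtgGACGAGGTCCACgagcgacac
Ddx5, chr11:106785184-106785213, minus strand: cttgtccttGATGAAGCTGATaggatgctt
Ddx41, chr13:55533047-55533076, minus strand: ctagccctgGATGAAGCTGACcgcatgatt
Ddx42, chr11:106238565-106238594, plus strand: cttgtgtttGATGAAGCCGATcgaatgttt
Ddx39, chr8:83721101-83721130, plus strand: tttgtgctaGATGAATGTGACaagatgctg
Ddx39b, chr17:35247081-35247110, plus strand: tttattttgGACGAGTGTGACaagatgctt
Ddx28, chr8:106010549-106010578, minus strand: atagtgctaGATGAAGTAGACacactgcta
Dhx9 and Dhx36 shared all 12 bases of the motif, while the paralogs Ddx39 and Ddx39b wrote the same residues with different codons. The 28 DEAD matches, that of Dhx29 among them, used 13 spellings, the commonest in 5 genes, and each of the 9 DEAH motifs had a spelling of its own.

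Promoter sequence was described next. Of the 47 member genes with a RefSeq window of the 250 bases before the start, 16 held the ETS-type motif CCGGAAG on either strand (34.0%, against 7.83% of all 27025 genes with a window), 31 held the GC box GGGCGG (66.0% against 35.4%) and 6 held an NRF1-type motif, GCGCA and GCGC with any base between them (12.8% against 4.23%). CCAAT was found in 21 (44.7% against 37.5%), TATAAA in 4 (8.51% against 14.3%) and the YY1-type motif AAGATGGC in 0 (0% against 1.83%). Windows of the members had a median GC content of 59.0%, against 52.4% for all windows, and base composition alone moves such shares. The genes set beside the members include many that are not expressed in these cells, whereas most members are. Shares among expressed genes alone were not worked out. Genes with more than 1 window were counted once, and a match is a run of letters, not a binding site. The upstream sequence of Dhx9, the member with the highest level, carried an ETS-type and an NRF1-type match, in capitals in the 222 bases that precede the annotated gene.
Dhx9, chr1:153487689-153487910, minus strand: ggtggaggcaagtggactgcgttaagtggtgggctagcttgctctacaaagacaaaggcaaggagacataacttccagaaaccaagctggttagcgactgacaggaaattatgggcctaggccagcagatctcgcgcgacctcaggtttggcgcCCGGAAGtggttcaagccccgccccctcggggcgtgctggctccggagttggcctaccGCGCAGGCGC

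In steady state 48 of the 53 genes were expressed, that is, had a mean above 0.5 RPKM over the 4 libraries. Their WT levels ran from 0.572 to 26.1 RPKM with a median of 2.84 RPKM, against 1.87 RPKM for all 11003 expressed genes. The 5 genes below the limit were Ddx4 (0.104 to 0.138 RPKM) and Ddx25 (0.0670 to 0.127 RPKM), which act in germ cells, and the antiviral genes Ddx58 (0.270 to 0.337 RPKM), Ddx60 (0.0480 to 0.0835 RPKM) and Dhx58 (0.169 to 0.368 RPKM). The antiviral members were thus all below it, and of the germ-line members only Ddx43 was above, at 2.68 and 2.47 RPKM in the WT libraries. The splicing genes (13), the ribosome assembly genes (16), the genes of mRNA export, translation, decay and RNP assembly (10), the mitochondrial genes (2) and the genes of genome maintenance and transcription (2) were all expressed.

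The highest level belonged to Dhx9, also known as RNA helicase A, a nuclear helicase of transcription and genome stability. It stood at 25.9 and 26.3 RPKM in the WT libraries and at 25.6 and 22.2 RPKM in those labelled EloA null, on 16170 to 20098 reads, and 115 expressed genes had a higher WT mean. Next came Ddx5 (13.8 and 13.9 RPKM in WT), a splicing helicase and transcriptional coregulator, and Ddx3x (13.4 and 13.0 RPKM), a translation helicase on the X chromosome. Ddx39 (10.3 and 10.2 RPKM), the gene RefSeq names Ddx39a, and Ddx17 (10.3 and 9.50 RPKM), the paralog of Ddx5, followed. The WT ranges of Ddx5 and Ddx3x did not overlap, whereas those of Ddx39 and Ddx17 did. The Y-linked Ddx3y stood at 2.10 and 2.05 RPKM in WT, far below its X-linked partner Ddx3x on the same per-length scale. In the genome 11 members overlap other listed genes, small RNA genes aside, all of them on the opposite strand. Among these members are Ddx17, Ddx28, Ddx39, Ddx42, Ddx49, Ddx5, Ddx54 and Ddx59. The paper describes directional libraries and reads separated by strand, but whether its gene counts used the strand is not given. The share of the members' reads that belongs to the other genes was not tested.

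**Figure D1:**
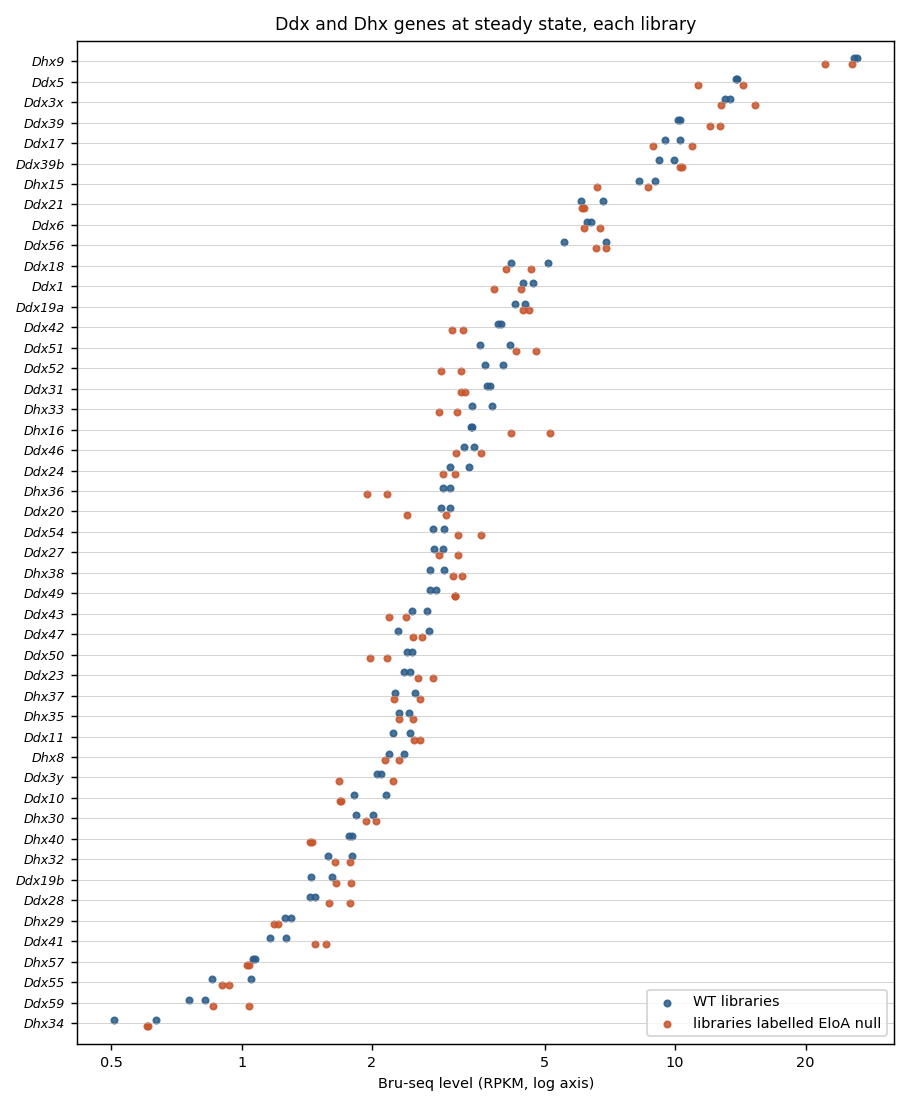
Steady-state Bru-seq level in RPKM (x axis, log scale) of the 48 expressed Ddx and Dhx genes (y axis, ordered by WT mean), with 1 point per library, blue for WT and orange for the libraries labelled EloA null. Dhx9 is highest, at 25.9 and 26.3 RPKM in WT, and Dhx34 lowest, with a WT mean of 0.572 RPKM.

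The first comparison asked whether nascent RNA of these genes differs in steady state between cells with and without Elongin A. None of the 48 members passed an adjusted p of 0.05 in limma's test with Benjamini-Hochberg adjustment, and neither did any of the 11003 genes tested (0.0%). At an unadjusted p below 0.05 there were 7 members, of which 3 were higher and 4 lower in EloA null, against 17.9% of all genes (13.8% higher and 4.1% lower). In a limma fit of all 12 libraries 0 members and 0.918% of genes passed the adjusted p (0.227% lower). A permutation of 2 against 2 libraries cannot give a two-sided p below 0.333, so no exact test of a single gene can pass 0.05. No member differed by more than 1.5-fold between genotype means, against 6.31% of genes higher and 1.66% lower. The median log2 ratio over the members was 0.01, against 0.03 over all genes. Libraries of the genotypes did not overlap for 13 members that were higher and 13 that were lower in EloA null, while 31.3% of all genes were higher and 21.4% lower in this way.

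The lowest ratio was that of Dhx36, a helicase that opens G-quadruplexes and binds AU-rich mRNA. Its WT libraries gave 2.91 and 3.02 RPKM and the libraries labelled EloA null 2.16 and 1.94 RPKM, so that the mean was 0.692-fold of WT (log2 ratio -0.53, limma SE 0.0914, adjusted p = 0.122 in limma). All 4 values rested on 1671 or more reads, and the groups did not overlap. Ddx52, which acts in assembly of the small ribosomal subunit, gave 4.02 and 3.64 RPKM in WT and 3.21 and 2.88 RPKM in EloA null (0.796-fold). Ddx42, a helicase bound to the U2 snRNP, gave 3.97 and 3.91 RPKM against 3.24 and 3.05 RPKM (0.799-fold). The last of the 5 lowest ratios were those of Dhx40 (1.80 and 1.77 against 1.44 and 1.45 RPKM, 0.810-fold) and Dhx33 (3.79 and 3.40 against 3.14 and 2.86 RPKM, 0.835-fold). In these 5 genes both EloA null libraries lay below both WT libraries.

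The highest ratio was that of Dhx16, which remodels the spliceosome before the first step of splicing. It gave 3.38 and 3.40 RPKM in WT and 4.18 and 5.15 RPKM in EloA null (1.38-fold, log2 ratio 0.46, adjusted p = 0.197 in limma). Ddx41, a splicing helicase that is also known as a DNA sensor, gave 1.16 and 1.27 RPKM against 1.47 and 1.56 RPKM (1.25-fold). Ddx39, which acts in mRNA export, gave 10.3 and 10.2 RPKM against 12.01 and 12.68 RPKM (1.21-fold). Ddx59 gave 0.823 and 0.756 RPKM against 1.04 and 0.859 RPKM (1.20-fold). Ddx54, a helicase of pre-rRNA processing, gave 2.94 and 2.76 RPKM against 3.16 and 3.56 RPKM (1.18-fold). Both EloA null libraries were above both WT libraries in all 5. Dhx9 was lower in both EloA null libraries by a small margin (0.914-fold, limma adjusted p = 0.589), and Ddx51, a helicase of large-subunit assembly, was higher in both at 4.29 and 4.78 RPKM against 4.15 and 3.55 RPKM (1.18-fold, limma adjusted p = 0.384).

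**Figure D2:**
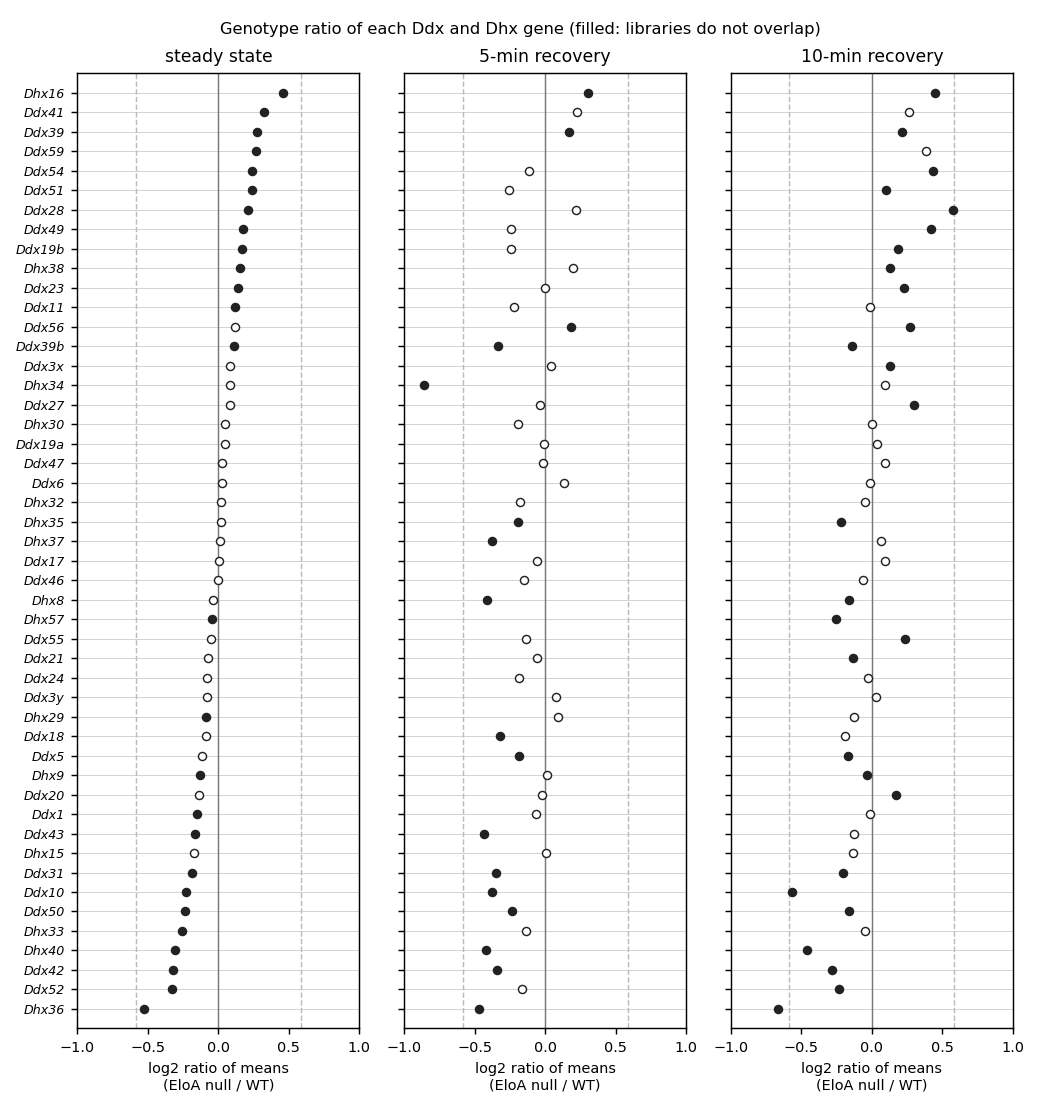
Log2 ratio of the mean RPKM in libraries labelled EloA null to that in WT (x axis) for each expressed Ddx and Dhx gene (y axis, ordered by the steady-state ratio) in the 3 conditions. Filled points mark genes whose libraries do not overlap between genotypes and dashed lines the 1.5-fold limits, which Dhx34 passes after 5 min and Dhx36 after 10 min of recovery.

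By role, and beside 31.3% higher and 21.4% lower over all genes, the splicing genes held 6 members that were higher without overlap and 1 that was lower, with a median log2 ratio of 0.02 over 13 genes. This list holds Ddx39 and Ddx39b, which act in splicing as well as in export. Ribosome assembly genes held 3 that were higher and 5 that were lower among 16 (median -0.06). Among the 10 genes of mRNA export, translation, decay and RNP assembly, 1 was higher and 3 lower (median -0.03). None of these lists had a member past the adjusted p.

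The genotype ratio moved with base composition. Over the 48 expressed members the steady-state log2 ratio and the GC content of the gene had a Pearson r of 0.73 (Spearman's rho 0.74), and over 10958 genes an r of 0.39 (rho 0.53). Genes share the same 4 libraries, so this is a description across genes. Of the 16 members with a GC content of 48% or more, a limit set after the values were seen, 15 had a ratio above 1 and 11 were higher without overlap, against 83.5% and 51.8% of all genes in that range. Of the 12 members below 42%, 10 had a ratio below 1 and 8 were lower without overlap, against 77.7% and 46.9% of all genes there. The members thus followed the same order as all genes. Dhx36 had 37.2% GC and Dhx16 51.2%. With the trend against GC content removed from each library, the steady-state limma log2 change went from -0.51 to -0.35 for Dhx36 and from 0.44 to 0.25 for Dhx16. Ddx41 went from 0.30 to 0.04, Ddx39 from 0.27 to 0.06 and Ddx54 from 0.23 to -0.05. Longer members had lower ratios as well (r = -0.48 against log10 of gene span, -0.19 over all genes). For gene span r was -0.41 in the members and 0.02 over all genes after 5 min of recovery. After 10 min it was -0.65 and -0.21. The part of base composition and length in the genotype ratios was not tested.

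**Figure D3:**
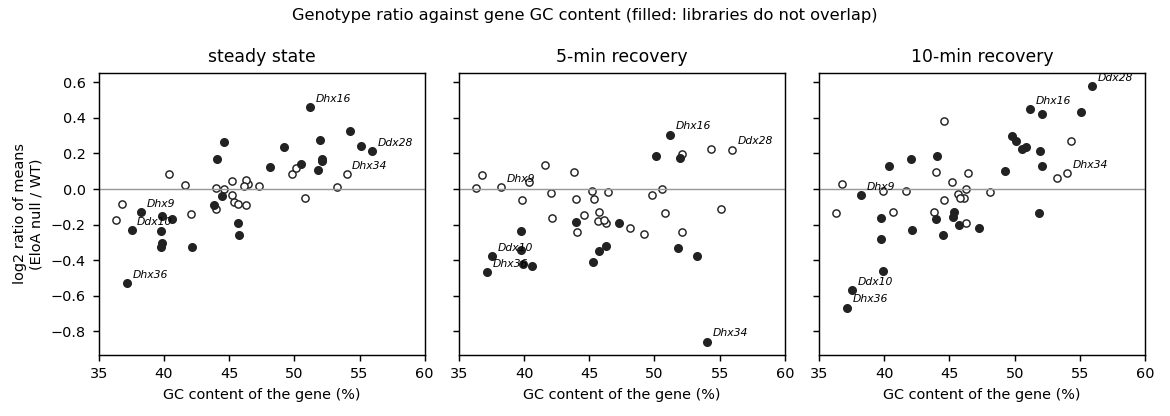
Log2 ratio of mean RPKM, EloA null over WT (y axis), against the GC content of the gene in percent (x axis) for the expressed members in each condition, filled where libraries do not overlap. Ratios increase with GC content in steady state and after 10 min of recovery (r = 0.73 and 0.66), and much less so after 5 min (r = 0.14).

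After 5 min of recovery from FP, 46 members were expressed, Ddx59 and Dhx57 having dropped below the limit. None of them passed the adjusted p in limma, nor did any of 8551 genes (0.0%), and 0 members had an unadjusted p below 0.05, against 9.03% of genes (4.44% higher and 4.58% lower). In the fit of all 12 libraries, which takes the spread from every condition, 3 members passed, all lower in EloA null, where 5.19% of genes passed and 2.61% did so with lower values. They were Dhx40 (adjusted p = 0.0442 in limma), Dhx8 (adjusted p = 0.0486 in limma) and Dhx36 (adjusted p = 0.0498 in limma). Within the 5-min libraries alone their limma adjusted p were 0.721, 0.564 and 0.614. The SEs there were 0.222, 0.154 and 0.197, against 0.080, 0.086 and 0.097 in the fit of all 12. These calls therefore rest on a shared spread that is smaller than that of the 5-min libraries. Without overlap, 3 members were higher and 14 lower (15.1% and 24.3% of genes), and the median log2 ratio was -0.14 against -0.06 over all genes. The higher count and the median moved when the first WT library was left out, while the lower count did not. Without that library 13 members were higher and 14 lower without overlap. The median limma log2 change over the members was then 0.02, against -0.13 with all libraries. The higher count was also 13 without the first EloA null library. A lone library is separated from a pair more easily. Without the second WT library, 4 were higher and 30 lower.

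Dhx34, which acts in nonsense-mediated mRNA decay, was the member past 1.5-fold, where 4.64% of genes were past the limit higher and 5.41% lower. It gave 0.902 and 0.522 RPKM in WT and 0.455 and 0.330 RPKM in EloA null (0.552-fold, adjusted p = 0.629 in limma). Those values rested on 114 to 187 reads, and the WT libraries differed from each other more than the second of them did from the EloA null libraries. Dhx36 gave 0.877 and 0.822 RPKM against 0.568 and 0.662 RPKM (0.723-fold). Ddx43 (0.740-fold), Dhx40 (0.746-fold) and Dhx8 (0.753-fold), the last of which releases mRNA from the spliceosome, were also lower without overlap. Dhx8 gave 1.22 and 1.13 RPKM in WT and 0.877 and 0.892 RPKM in EloA null, and its steady-state libraries had overlapped (2.37 and 2.19 against 2.15 and 2.30 RPKM).

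The highest ratios after 5 min were those of Dhx16 (1.23-fold), Ddx41 (1.17-fold), Ddx28 (1.17-fold), Dhx38 (1.15-fold) and Ddx56 (1.14-fold). Dhx16 (2.63 and 2.41 against 2.69 and 3.53 RPKM) and Ddx56 (10.1 and 8.64 against 10.5 and 10.7 RPKM), which acts in assembly of the large ribosomal subunit, did not overlap between genotypes. The libraries of Ddx41, Ddx28 and Dhx38, a helicase of the second step of splicing, overlapped, and Ddx41 rested on 47 to 78 reads and Ddx28 on 35 to 88. Ddx41 turned to lower in EloA null without the second WT library or the first EloA null library, and Ddx28 without the second EloA null library. Dhx9 gave 17.7 and 18.3 RPKM in WT and 15.1 and 21.2 RPKM in EloA null, and Ddx51 6.47 and 4.04 RPKM against 4.52 and 4.29 RPKM. In both genes the spread within a genotype exceeded the difference between genotypes.

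After 10 min of recovery 48 members were expressed and 0 of them passed the adjusted p in limma, as did 0 of 9867 genes (0.0%). At an unadjusted p below 0.05 there were 6 members, 2 higher and 4 lower in EloA null, and 19.9% of genes (14.8% higher and 5.08% lower). The fit of all 12 libraries called Dhx36 (adjusted p = 0.0224 in limma) and Dhx40 (adjusted p = 0.0441 in limma), both lower, where 2.23% of genes passed and 0.618% were lower. Without overlap 14 members were higher and 14 lower (33.0% and 21.8% of genes), with a median log2 ratio of -0.01 against 0.05 over all genes.

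Dhx36 was the member past 1.5-fold (8.25% of genes higher, 2.46% lower). It gave 2.63 and 2.66 RPKM in WT and 1.61 and 1.72 RPKM in EloA null (0.630-fold, log2 ratio -0.67, adjusted p = 0.112 in limma), on 1072 to 1960 reads. With the GC trend removed its limma log2 change went from -0.64 to -0.53, which is within 1.5-fold. Ddx10, a ribosome assembly helicase and the longest member at 150 kb, gave 0.828 and 0.944 RPKM against 0.575 and 0.621 RPKM (0.675-fold). Dhx40 gave 1.44 and 1.42 RPKM against 1.04 and 1.04 RPKM (0.726-fold). Ddx42 (0.824-fold) and Dhx57 (0.837-fold) completed the 5 lowest, again without overlap.

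The highest ratio was that of Ddx28, a helicase of mitochondrial ribosome assembly, at 3.52 and 3.00 RPKM in WT and 4.52 and 5.22 RPKM in EloA null (1.49-fold, adjusted p = 0.162 in limma), on 124 to 279 reads. Dhx16 gave 5.74 and 5.42 RPKM against 8.56 and 6.65 RPKM (1.36-fold). Ddx54 (1.35-fold) and Ddx49 (1.34-fold), both of ribosome assembly, did not overlap, while Ddx59 (1.30-fold) did. Ddx49 rested on the first EloA null library (5.21 and 5.66 RPKM in WT, 8.77 and 5.78 RPKM in EloA null), and leaving out 1 library gave limma log2 changes of 0.089 to 0.68 for it and of 0.27 to 0.57 for Ddx54. With the GC trend removed the limma log2 changes went from 0.57 to 0.19 for Ddx28, from 0.43 to 0.20 for Dhx16, from 0.42 to 0.06 for Ddx54 and from 0.39 to 0.13 for Ddx49. Dhx9 gave 40.8 and 42.1 RPKM in WT and 40.6 and 40.4 RPKM in EloA null (0.977-fold, limma adjusted p = 0.830), and Ddx51 8.08 and 8.10 RPKM against 9.06 and 8.29 RPKM (1.07-fold).

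Over all genes 15.1% were higher and 24.3% lower without overlap after 5 min, and 33.0% and 21.8% after 10 min. By role, 2 splicing genes were higher without overlap and 5 lower after 5 min, and 4 were higher and 5 lower after 10 min (median log2 ratios -0.06 and -0.06 over 13 genes). Of the 16 ribosome assembly genes, 1 was higher and 5 were lower after 5 min, and 6 were higher and 5 lower after 10 min (medians -0.17 and 0.02). Of the 10 genes of mRNA export, translation, decay and RNP assembly, 0 were higher and 2 lower after 5 min, and 3 were higher and 1 lower after 10 min (medians -0.02 and 0.04). None of these lists had a member past the adjusted p within its table.

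Of the 46 members expressed in all 3 conditions, 2 were higher without overlap in each of them (Ddx39 and Dhx16) and 6 were lower (Ddx10, Ddx31, Ddx42, Ddx50, Dhx36 and Dhx40). Over all 7818 genes expressed in the 3 conditions, 8.44% were higher and 9.86% lower in this way. The 3 tables hold different libraries of the same cells. Ddx31 and Ddx50 are further helicases of ribosome assembly. Ddx31 gave 3.73 and 3.67 RPKM in WT and 3.28 and 3.21 RPKM in EloA null in steady state (0.877-fold), and its ratios were 0.787-fold and 0.868-fold after 5 and 10 min. Ddx50 stood at 0.850-fold, 0.850-fold and 0.894-fold of WT.

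**Figure D4:**
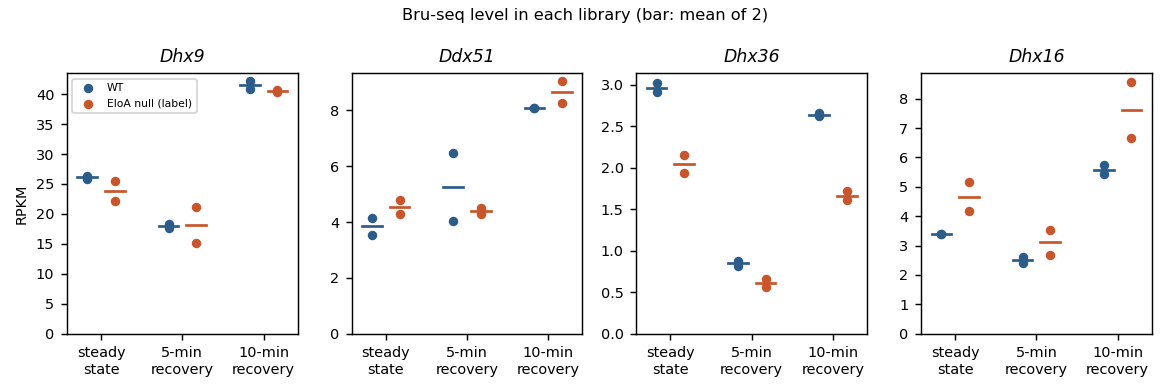
RPKM (y axis, linear from 0) of Dhx9, Ddx51, Dhx36 and Dhx16 in each library of the 3 conditions, with a bar at the mean of 2 libraries, blue for WT and orange for libraries labelled EloA null. Dhx36 is lower and Dhx16 higher in EloA null without overlap in each condition, while Dhx9 and Ddx51 overlap after 5 min of recovery.

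Whether the genotype difference itself changed after release was tested as an interaction in the fit of all 12 libraries. None of 46 members passed the adjusted p for 5 min of recovery against steady state (0.0486% of 8226 genes did), and none of 48 for 10 min (0.0% of 9471 genes). At an unadjusted p below 0.05, 2 members and 5.11% of genes were found at 5 min, and 0 members and 1.18% of genes at 10 min. The members with the smallest p at 5 min were Ddx39b, the export helicase UAP56 (interaction -0.44 ± 0.127 SE on the log2 scale, adjusted p = 0.899 in limma), Dhx8 (-0.34 ± 0.124) and Dhx34 (-0.77 ± 0.352). Ddx39b was slightly higher in EloA null in steady state (9.19 and 9.95 against 10.3 and 10.4 RPKM) and lower after 5 min (5.45 and 5.23 against 4.02 and 4.45 RPKM), without overlap both times. At 10 min the smallest p belonged to Ddx39b (-0.25 ± 0.130), Ddx20 (0.31 ± 0.208) and Dhx35 (-0.21 ± 0.154).

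The recovery libraries were also set beside steady state. No Bru-seq library was made under FP without release, so signal left from before or during the block was not measured. The ratios below therefore do not show how far transcription of a gene had returned. FP stops polymerase from leaving the promoter region, so after its removal RNA appears first near the start and later in the body of a gene. The level of each recovery library was divided by the mean steady-state level of its genotype. RPKM are relative to the size of each library, and the 3 tables may have been scaled separately. A ratio of 1 therefore does not mean equal amounts of RNA, and these ratios are descriptions without a test. The 13 expressed members shorter than 15 kb had a median ratio of 1.23 ± 0.064 in WT (mean ± SD of 2 libraries) after 5 min and 2.24 ± 0.197 after 10 min. The 25 members of 15 to 40 kb had medians of 0.613 ± 0.094 and 1.64 ± 0.029, and the 10 members over 40 kb 0.599 ± 0.078 and 0.880 ± 0.050. All genes of the same length bands had medians of 0.747, 0.493 and 0.637 after 5 min, and 1.33, 1.28 and 0.666 after 10 min. The members' median was above that of all genes in each band except the longest at 5 min.

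In the libraries labelled EloA null the members' medians were 1.15 ± 0.150, 0.602 ± 0.015 and 0.554 ± 0.027 after 5 min, and 2.19 ± 0.127, 1.75 ± 0.083 and 0.842 ± 0.027 after 10 min. The genotype means differed by less than the larger of their SDs in each band, except at 15 to 40 kb after 10 min. Over the members, the log2 ratio after 10 min rose with the share of the counted bases that lies in the first 20 kb of the gene (r = 0.75 in WT and 0.76 in EloA null, n = 47). After 5 min the relation to the share in the first 10 kb was looser (r = 0.52 and 0.49). The points share libraries, and no p is given.

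Dhx9, at 32 kb, stood at ratios of 0.679 and 0.703 in WT and 0.634 and 0.889 in EloA null after 5 min, and at 1.57 and 1.62 in WT and 1.70 and 1.69 in EloA null after 10 min. The ratio of Ddx20, an SMN complex helicase of 9.5 kb, was the highest of the expressed members in each recovery library but the first WT library at 10 min, at 2.96 and 2.76 in WT and 2.72 and 3.49 in EloA null after 5 min, and 3.39 and 3.87 against 4.68 and 4.31 after 10 min. In that library 4 members were higher, Ddx47, Ddx56, Ddx24 and Dhx33. The rRNA processing gene Ddx47 reached 4.16 and 3.14 in WT after 10 min, and Ddx56 3.52 and 3.03. The shortest members, Ddx28 (1.9 kb), Ddx41 (6.2 kb) and Ddx5 (8.8 kb), stood at WT means of 1.26, 0.950 and 1.59 after 5 min and 2.24, 1.85 and 2.41 after 10 min.

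Genes of like length could differ widely. Ddx39b, at 12 kb, reached 0.569 and 0.546 in WT and 0.390 and 0.432 in EloA null after 5 min, below the other 12 expressed members under 15 kb in each library. Ddx54, at 15.5 kb, reached 0.243 and 0.201 in WT and 0.186 and 0.162 in EloA null after 5 min, on 79 to 109 reads, and 1.04 and 0.837 against 1.18 and 0.961 after 10 min. Ddx59 moved in the same manner, from a WT mean of 0.170 to 1.04, on 29 to 77 reads at 5 min. Ddx42, at 32 kb, stood at 1.18 and 1.26 in WT after 5 min and 2.74 and 3.05 after 10 min, above Dhx9 of the same length. Dhx36, at 39 kb, was at 0.296 and 0.277 in WT and at 0.276 and 0.322 in EloA null after 5 min, and its ratios after 10 min were 0.886 and 0.897 against 0.783 and 0.840.

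The longest expressed members were Ddx10 (150 kb), Ddx31 (65 kb) and Dhx35 (63 kb), the last a spliceosome helicase. In Ddx10 the ratio was lower at the later time point. The WT median over all genes above 40 kb rose little, from 0.637 to 0.666. The Ddx10 ratio was 0.826 and 1.12 in WT and 0.865 and 0.896 in EloA null after 5 min. After 10 min it was 0.417 and 0.476 in WT and 0.340 and 0.367 in EloA null. Signal left in this gene from before the block was not tested. Of its counted bases 6.55% lie in the first 10 kb and 12.9% in the first 20 kb. Dhx35 was also lower after 10 min than after 5 min (WT means 0.676 and 0.846), as was Dhx34 in WT, while Ddx31 was higher (1.06 against 0.689). Since RPKM are relative to the size of each library, the order of the time points rests on the values as deposited.

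**Figure D5:**
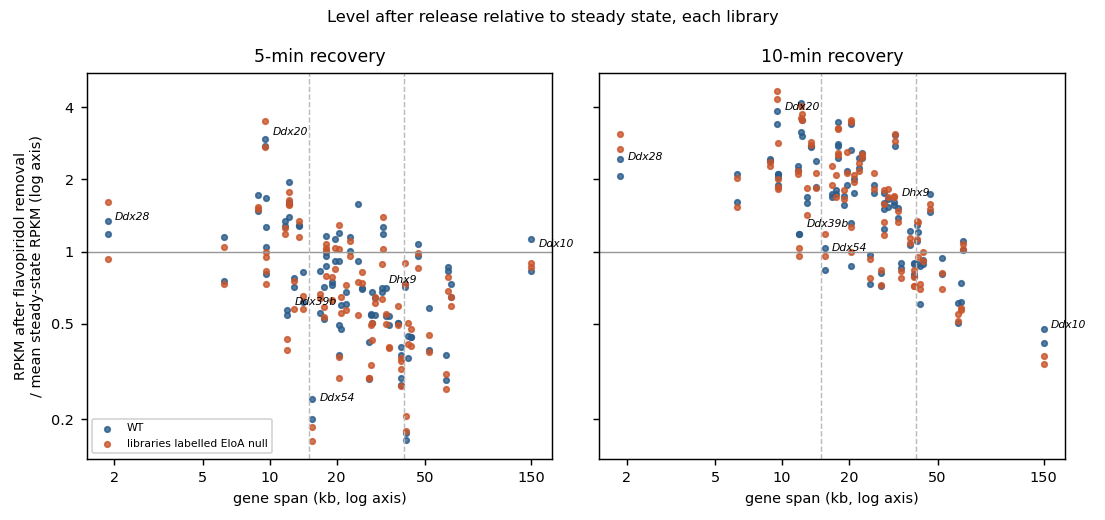
Ratio of the RPKM of each recovery library to the mean steady-state RPKM of its genotype (y axis, log scale) against gene span in kb (x axis, log scale) for the 48 members expressed in steady state, 5 min (left) and 10 min (right) after FP removal. Dashed lines mark 15 and 40 kb, and members under 15 kb lie on both sides of 1 after 5 min, with Ddx20 highest and Ddx39b lowest, while Ddx10, the longest, is near 0.9 after 5 min and near 0.4 after 10 min.

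Other RNA helicases and the cofactors of DEAH box helicases were read beside the members. Of 22 RNA helicases with other names, 16 were expressed in steady state, 13 after 5 min and 16 after 10 min, and 0 passed the adjusted p in limma in any condition (unadjusted p below 0.05 for 1, 2 and 4 of them). Without overlap, 4 were higher and 3 lower in EloA null in steady state. After 5 min 1 was higher and 3 lower, and after 10 min 5 were higher and 2 lower. Over all genes 31.3% were higher and 21.4% lower in steady state. The shares were 15.1% and 24.3% after 5 min, and 33.0% and 21.8% after 10 min. An unadjusted p below 0.05 in limma was found for 17.9%, 9.03% and 19.9% of all genes. Median log2 ratios of these helicases were 0.04, -0.06 and 0.03. Eif4a2 and Eif4a1, the helicases of translation initiation, had higher levels than any member, at WT means of 63.3 and 34.7 RPKM. Overlapping genes and small RNA genes were looked up for the members only, so their share in these levels was not tested. Eif4a1 gave means of 44.9 RPKM in WT and 30.9 RPKM in EloA null after 5 min (log2 ratio -0.54, without overlap) and a log2 ratio of -0.44 after 10 min, but 34.7 against 36.8 RPKM in steady state. Of 23 genes of G-patch proteins, which bind and activate DEAH box helicases, all were expressed in steady state, 22 after 5 min and 23 after 10 min, and 0 passed the adjusted p. In steady state 4 were higher and 7 lower without overlap (31.3% and 21.4% of all genes), with a median log2 ratio of -0.03. The largest steady-state ratio in this list was that of Pinx1, an inhibitor of telomerase, at 2.90 RPKM in WT and 4.00 RPKM in EloA null as means (log2 ratio 0.47, limma adjusted p = 0.122).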

How the data were processed

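Bru-seq was analysed for 12 libraries, and 16 further samples of the series (CUT&RUN and ChIP) were not used here. Per the paper's methods, the authors depleted mature mRNA with oligo d(T), added a spike-in, aligned reads to mouse and fly genomes with Bowtie2 (version 2.3.4.3 in the submitters' processing notes), kept unique reads, counted them over genes with featureCounts 1.6.1 and made the deposited RPKM values with edgeR. Whether the spike-in entered the scaling is not given in the sources used here.

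Genes with a mean above 0.5 RPKM over the 4 libraries of a table were tested by limma 3.58.1 (R 4.3.3) with an intensity trend, on log2(RPKM + 0.1), which understates changes of low genes. P-values were adjusted by Benjamini-Hochberg over all genes tested. Folds and log2 ratios are of mean RPKM unless called limma changes. The interaction came from a limma fit of all 12 libraries. Named genes were the 5 highest and 5 lowest ratios per comparison, the 5 highest levels, the 3 longest and 3 shortest members, the 3 smallest interaction p and Dhx9 and Ddx51, which the study names. Others (among them Ddx39b and Ddx20 in the recovery, Ddx47, Ddx54, Ddx59, Eif4a1 and Pinx1) were chosen after their values were seen. Members and lists were chosen with earlier results of these data known. Sequences are from RefSeq on GRCm38.p6. The scripts were tested on simulated data. Alternatives were the pseudocount, the filter, centring, the 12-library fit, a replicate block, a robust variance, GC and length trends and leaving out each library. The GC removal was added after the data were seen.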

Additional observations from a re-analysis of the deposited data

How the results depend on the processing

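Unless a share is given, counts in this section are of members alone, without the share of all genes under the same setting. A shifted count is therefore not a result about the members. With no filter on low values, 1 member was more than 1.5-fold higher and 1 lower in steady state. With that setting 2 were higher after 5 min and 1 was higher after 10 min. With a mean RPKM over 2, 0 were lower after 5 min. With libraries centred on their median, 2 were lower after 10 min and the median limma log2 change over the members was -0.058 in steady state and -0.11 after 10 min. With the GC trend removed it was -0.053 in steady state and -0.066 after 10 min, and 0 members were lower by 1.5-fold after 10 min, also with GC and length trends removed. Ddx54 in steady state turned to -0.051 with the GC trend and to -0.050 with GC and length trends removed. In the fit of all 12 libraries 3 members passed the adjusted p after 5 min and 2 after 10 min (5.19% and 2.23% of all genes).

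Leaving out 1 library gave 0 to 1 members 1.5-fold higher and 0 to 1 lower in steady state (1 and 1 without EloA null replicate 1), with a median change of -0.059 to 0.052. After 5 min, 0 to 2 were lower (0 without WT replicate 1, 2 without WT replicate 2), with a median of -0.21 to 0.016. After 10 min, 0 to 3 were higher (3 without WT replicate 1) and 1 to 2 lower, with a median of -0.045 to 0.079. Members higher without overlap were 13 to 22 in steady state (most without WT replicate 1, 20 without EloA null replicate 2), 4 to 13 after 5 min (13 without WT replicate 1 or EloA null replicate 1, 6 without EloA null replicate 2) and 16 to 25 after 10 min (most without WT replicate 1). Those lower were 14 to 22 (22 without WT replicate 2 or EloA null replicate 1), 14 to 30 (30 without WT replicate 2, 28 without EloA null replicate 2) and 17 to 24 (most without WT replicate 2). A lone library is separated from a pair more easily, by construction. After 5 min Ddx28 ranged from -0.21 to 0.54 and Ddx41 from -0.066 to 0.50.

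Whether same-numbered libraries form pairs was not settled. They deviated with a correlation of 0.11, 0.15 and 0.097 in steady state, 5 min and 10 min, from 2 pairs each. So few pairs cannot decide it, and the second library was the larger in each genotype and condition. With a replicate block 0 members passed the adjusted p in each comparison and interaction, 0, 1 and 1 were 1.5-fold lower, and 0 were higher.

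Divided by its median over all genes, the WT recovery ratio of the members after 5 min was 1.98, 0.981 and 0.960 in the 3 length bands from short to long, the EloA null ratio 2.05, 1.07 and 0.989, and the WT ratio at 15 to 40 kb after 10 min 1.60. With a steady-state mean RPKM over 2, the ratio over 40 kb was 0.722 in WT and 0.734 in EloA null after 5 min and 1.06 and 1.05 after 10 min, and at 15 to 40 kb it was 0.653 in EloA null after 5 min and 1.71 in WT after 10 min. Dividing by the median rescales all genes of a library alike, and the limit of RPKM over 2 changes which members are in a band. What sets the remaining members apart was not tested. Depth limited the values after 5 min most, where Ddx28, Ddx41, Ddx54 and Ddx59 rested on fewer than 110 reads per library.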
